A study of Mus musculus with 4 samples.

Results

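The genes of dendritic cell maturation and migration described over 4 conditions are Cd40, Cd80, Cd86, Cd83, Cd274, Ccr7, Fscn1, Cacnb3, Marcks and Marcksl1. These are 10 of 22221 genes with a symbol in the deposited table, taken by their gene symbol, with the probe set of highest mean over the 4 arrays where a gene had more than 1 (only Cd80, with 2). The group was chosen from known roles and on how some of these genes differed between the same 4 arrays, so the differences below describe these arrays, and no test is attached to them. Bone marrow cells of C57Bl/6 mice had been turned into dendritic cells with GM-CSF and kept for 16 h at normoxia or hypoxia, each with media alone or with poly I:C (10 µg/ml). This synthetic double-stranded RNA stands in for viral RNA, and the level of hypoxia is given as 0.5% of a gas that is not named. Total RNA of each group was hybridised to 1 whole-transcript array (Affymetrix Mouse Gene ST 1.0). The data therefore hold no replicates, no replicate error and no p-value, and their precision is limited by the number of arrays.

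Dendritic cells take up material in tissues in an immature state and mature when they sense microbes or viral nucleic acid. Maturing cells raise surface ligands that instruct T cells, gain the chemokine receptor CCR7, which leads them towards lymph nodes, and rebuild their actin skeleton into the long processes that gave them their name. In the list here CD40, CD80, CD86, CD83 and PD-L1 (the product of Cd274) belong to the contact with T cells, and the products of Ccr7, Fscn1, Cacnb3, Marcks and Marcksl1 to navigation, cell shape and calcium entry.

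The values are RMA intensities, deposited on a linear scale, and a difference is given as log2 of the ratio of 2 arrays, so 1 is 2-fold. A gene was taken as measured well enough for counting when at least 1 array reached an intensity of 64, which 2715 genes did. Of the 10 genes 7 passed, and Cd40, Cd80 and Cd83 did not. Cd40 missed by little, with a highest intensity of 60.5, while Cacnb3 passed with 84.2. Cd86 and Ccr7 passed on the poly I:C arrays only, Marcks on the normoxic arrays only, and Fscn1 and Cacnb3 on the normoxic poly I:C array only. Such a gene had to be higher there, so the counts below describe these genes and support nothing. The same holds for genes of the lists below that passed on some arrays only. Over the 2715 genes the difference of differences (the hypoxia difference with poly I:C minus that in media), which draws on all 4 arrays, had a robust SD of 0.45. Divided by the square root of 2 this gives 0.32, used below as a yardstick for 1 difference, which includes any real response to the combination. It is not a replicate error. The robust SDs of the hypoxia differences themselves were 0.49 in media and 0.43 with poly I:C. Those of the poly I:C differences were 0.71 at normoxia and 0.77 at hypoxia.

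The arrays carried RNA of myeloid cells. Of 12 dendritic cell markers 5 passed the intensity of 64, Itgax (CD11c) and the MHC class II pathway genes Cd74, H2-Aa, H2-Ab1 and H2-Eb1, while Flt3 (2.48 to 3.83), Zbtb46 (4.97 to 6.21) and Cd209a (2.02 to 2.83) lay near the bottom of the scale on all 4 arrays. Of 15 macrophage markers 13 passed, so markers of both cell types were present. The summed intensity of the dendritic cell markers was 3757 at normoxia in media, 3584 at normoxia with poly I:C, 4756 at hypoxia in media and 5042 at hypoxia with poly I:C. Itgax was lower at hypoxia while that sum was higher, at 615, 328, 425 and 268 in the same order. The macrophage sum lay between 5850 and 6263, of which Lyz2, the lysozyme gene, made up 2856 to 3543. Single macrophage markers differed widely below that sum: the mannose receptor gene Mrc1 read 131, 11.5, 50.1 and 4.81 in that order, and the Fc receptor gene Fcgr1 read 44.7, 666, 21.1 and 650. Of the 13 macrophage markers 3 were 2-fold higher and 4 lower with both treatments together against neither, beside 18.8% and 14.4% of the 2715 genes. The sum of 12 neutrophil markers was 487 and 617 in media against 155 and 132 with poly I:C, through Mmp8, the neutrophil collagenase gene, the member of that list that passed. No listed marker of B cells, T cells, natural killer cells, mast cells or stromal cells passed, and their summed intensities lay between 14.5 and 43.7. Bst2, a plasmacytoid dendritic cell marker that interferon also induces, was at 36.7 and 28.0 in media and at 550 and 611 with poly I:C. In such bulk RNA fewer cells of a type and less RNA per cell cannot be told apart, and the part of these shifts in the values below was not tested.

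The genes for contact with T cells were higher with poly I:C, and most of them were at similar levels at normoxia and hypoxia. Cd86, a ligand for the T cell receptors CD28 and CTLA-4, read 24.0 at normoxia in media, 236 at normoxia with poly I:C, 23.6 at hypoxia in media and 312 at hypoxia with poly I:C. Both poly I:C arrays stood far above both media arrays, by 9.85-fold at normoxia (log2 3.30) and 13.2-fold at hypoxia (3.72). The hypoxia difference of Cd86 was -0.02 in media and 0.40 with poly I:C. Cd80, the related ligand for the same receptors, was dim throughout and read 12.3, 34.3, 9.22 and 32.4 in the same order of conditions. It was higher with poly I:C by 1.48 at normoxia and by 1.81 at hypoxia on the log2 scale, and with 16 added to each intensity these became 0.83 and 0.94, short of 2-fold. The second, dimmer Cd80 probe set gave 1.47 and 1.23.

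Cd40 encodes the TNF receptor family member through which helper T cells license dendritic cells. Its intensities were 6.30 at normoxia in media, 60.5 at normoxia with poly I:C, 5.45 at hypoxia in media and 51.5 at hypoxia with poly I:C. The media values were dim, against array medians of 3.90 and 4.02, so the folds of 9.61 at normoxia and 9.45 at hypoxia rest on a dim denominator. With 16 added to each intensity the log2 difference of 3.26 at normoxia became 1.78. Cd274 encodes PD-L1, which restrains T cells through PD-1, and was well above an intensity of 64 on every array. It read 184 at normoxia in media, 579 at normoxia with poly I:C, 162 at hypoxia in media and 582 at hypoxia with poly I:C. The poly I:C differences were 1.66 at normoxia and 1.85 at hypoxia, and the hypoxia differences were -0.18 in media and 0.01 with poly I:C.

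Cd83 stood apart from the other surface molecules. Its product is a surface marker of mature dendritic cells that helps to keep MHC class II and CD86 at the surface. Cd83 read 17.2 at normoxia in media, 50.1 at normoxia with poly I:C, 14.9 at hypoxia in media and 21.1 at hypoxia with poly I:C. The normoxic poly I:C array was high and the other 3 were close to each other. The poly I:C difference was 1.54 at normoxia and 0.50 at hypoxia, and hypoxia with poly I:C lay 1.25 below normoxia with poly I:C. All 4 values were under 64, and with 16 added to the intensities the difference with poly I:C at normoxia was 0.99 and that of hypoxia with poly I:C was -0.83, both short of 2-fold.

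**Figure D1:**
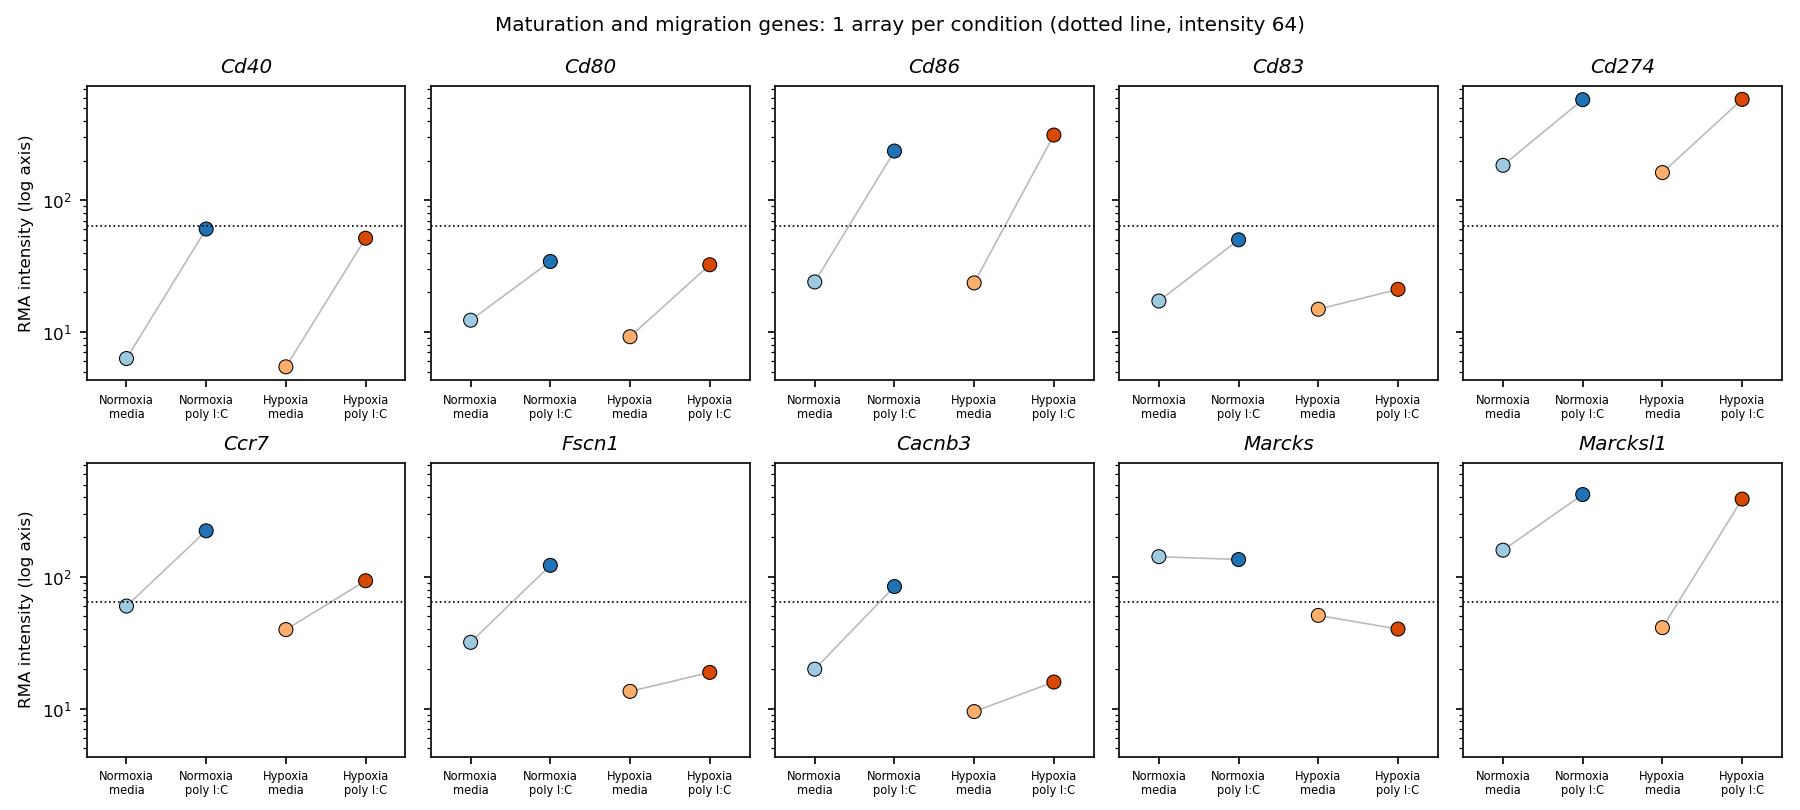
Each panel plots the RMA intensity of 1 gene (log axis) on the 4 arrays, 1 point per condition, with the media and poly I:C arrays of the same oxygen level joined and a dotted line at an intensity of 64. Cd40, Cd80, Cd86 and Cd274 repeat the same step at normoxia and hypoxia, whereas Fscn1 (122 at normoxia with poly I:C, 18.8 at hypoxia with poly I:C), Cacnb3 and Cd83 are high on the normoxic poly I:C array only.

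The genes for migration and cell shape were divided, and Fscn1 and Cacnb3 carried the widest differences between normoxia and hypoxia in stimulated cells. Fscn1 encodes fascin, which bundles actin filaments in the processes of mature dendritic cells. It read 31.8 at normoxia in media, 122 at normoxia with poly I:C, 13.5 at hypoxia in media and 18.8 at hypoxia with poly I:C. The hypoxic arrays were both below the unstimulated normoxic array. Poly I:C added 89.8 intensity units at normoxia and 5.23 at hypoxia, which is 3.83-fold and 1.39-fold. Hypoxia with poly I:C was 6.47-fold below normoxia with poly I:C (log2 -2.69), and 1 of the 2715 genes, Apol7c, was lower in that comparison.

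Cacnb3 encodes the beta 3 subunit of voltage-gated calcium channels, which is also found in cells that do not fire action potentials. Its intensities followed those of Fscn1, at 19.9 at normoxia in media, 84.2 at normoxia with poly I:C, 9.49 at hypoxia in media and 15.9 at hypoxia with poly I:C. It was 4.24-fold higher with poly I:C at normoxia and 1.67-fold higher at hypoxia, and 5.31-fold lower at hypoxia than at normoxia with poly I:C (log2 -2.41). With 16 added to each intensity that last difference was -1.65. After Fscn1 it was the next lowest of the 2715 genes in that comparison as deposited. Cacnb3 too passed on the normoxic poly I:C array only, so its place supports nothing. Over the 4 arrays the distance between the log2 profiles of Fscn1 and Cacnb3, each centred on its own mean, was 0.31, against 1.17 between Fscn1 and Ccr7 and 3.29 between Fscn1 and Cd86. None of the 16 other voltage-gated calcium channel subunit genes on the list, which were all on the array, reached an intensity of 64 on any array.

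Ccr7, the gene of the receptor for the lymph node chemokines CCL19 and CCL21, lay between these patterns. It read 59.9 at normoxia in media, 223 at normoxia with poly I:C, 39.7 at hypoxia in media and 93.2 at hypoxia with poly I:C. Stimulated arrays were above the media arrays at either oxygen level, by 3.73-fold at normoxia and 2.35-fold at hypoxia. Hypoxia differed from normoxia by -0.59 in media and by -1.26 with poly I:C, so the hypoxic stimulated array stood 2.39-fold below the normoxic one and 1.56-fold above the unstimulated normoxic one.

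Marcks and Marcksl1 encode related membrane-bound proteins that hold the lipid PIP2 and bind actin and calmodulin, and that leave the membrane when protein kinase C phosphorylates them. They went separate ways. Marcks read 142 at normoxia in media, 135 at normoxia with poly I:C, 50.9 at hypoxia in media and 40.1 at hypoxia with poly I:C. Its 2 normoxic arrays were alike and its 2 hypoxic arrays were low. The hypoxia difference was -1.48 in media and -1.75 with poly I:C, while the poly I:C differences were -0.07 and -0.34 as deposited and took either sign under other scalings (-0.13 to 0.34 at normoxia and -0.48 to 0.10 at hypoxia).

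Marcksl1 read 159 at normoxia in media, 420 at normoxia with poly I:C, 41.1 at hypoxia in media and 388 at hypoxia with poly I:C. Its lowest array was hypoxia in media, 3.88-fold below normoxia in media (log2 -1.95), and its poly I:C arrays were alike (-0.12). With poly I:C the signal was 2.64-fold higher at normoxia and 9.44-fold higher at hypoxia. Among the 10 genes Marcksl1 and Marcks had the lowest hypoxia differences in media, and with poly I:C that of Marcksl1 was near 0 while that of Marcks was -1.75.

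The RefSeq promoter table (build GRCm38.p6) held windows for 5 of the 10 genes, Cd80, Cd274, Fscn1, Marcksl1 and, with 2 start sites, Cacnb3. Each window runs from 250 bases before the start site to 50 bases from it. The 4 windows of Fscn1, Cacnb3 and Marcksl1 are shown because Fscn1 and Cacnb3 had nearly the same profile over the arrays, while Marcksl1 differed from them at hypoxia with poly I:C. All lie on the plus strand, at chr5:142960105-142960404 for Fscn1, chr15:98632078-98632377 and chr15:98634517-98634816 for Cacnb3 and chr4:129513331-129513630 for Marcksl1. They are written 5′ to 3′, with matches to the motifs described next in capitals.
Fscn1: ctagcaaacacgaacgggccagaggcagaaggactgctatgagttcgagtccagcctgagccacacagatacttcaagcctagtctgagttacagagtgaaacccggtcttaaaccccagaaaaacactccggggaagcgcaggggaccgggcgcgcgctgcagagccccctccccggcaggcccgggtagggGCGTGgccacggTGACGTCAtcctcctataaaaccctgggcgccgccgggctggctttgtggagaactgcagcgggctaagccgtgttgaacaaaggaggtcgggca
Cacnb3 first start site: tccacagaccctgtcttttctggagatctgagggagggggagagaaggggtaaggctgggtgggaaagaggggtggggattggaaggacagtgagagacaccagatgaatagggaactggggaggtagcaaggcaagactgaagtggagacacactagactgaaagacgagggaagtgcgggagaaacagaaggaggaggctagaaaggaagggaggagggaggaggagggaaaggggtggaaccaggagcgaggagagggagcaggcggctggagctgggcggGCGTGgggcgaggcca
Cacnb3 second start site: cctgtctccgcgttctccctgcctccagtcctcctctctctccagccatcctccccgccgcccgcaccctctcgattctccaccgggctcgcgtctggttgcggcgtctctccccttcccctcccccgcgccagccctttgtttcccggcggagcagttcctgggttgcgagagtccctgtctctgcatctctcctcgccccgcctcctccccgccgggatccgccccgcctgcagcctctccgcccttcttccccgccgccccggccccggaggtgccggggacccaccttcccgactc
Marcksl1: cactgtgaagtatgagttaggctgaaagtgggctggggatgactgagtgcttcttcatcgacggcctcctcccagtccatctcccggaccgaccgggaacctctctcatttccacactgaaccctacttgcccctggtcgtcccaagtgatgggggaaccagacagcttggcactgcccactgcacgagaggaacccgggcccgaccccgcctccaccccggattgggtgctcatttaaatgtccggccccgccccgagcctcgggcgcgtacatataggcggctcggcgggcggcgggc

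Both strands of the windows were searched for the hypoxia response element core (ACGTG or GCGTG), the interferon-stimulated response element (GAAANNGAAA), the interferon-gamma activated site (TTCNNNGAA) and the NF-kB consensus. The full cyclic AMP response element (TGACGTCA) was added after the sequences had been read. Fscn1 held GCGTG at -57 to -53 from the start site and TGACGTCA at -45 to -38. The first Cacnb3 window held GCGTG at 35 to 39, and the second Cacnb3 window and the Marcksl1 window held none of the 5 motifs. Cd274 held GCGTG at -201 to -197 and CACGT, the reverse complement of ACGTG, at 40 to 44, and Cd80 held none. A hypoxia core stood in 43.8% of the 32851 promoter windows of the table, so such a match is common, and the cyclic AMP element stood in 1.79%. The interferon-stimulated element stood in 3.44%, the activated site in 8.30% and the NF-kB consensus in 8.46% of all windows. The motif searches did not overlap in the matches found, and a match is a description of letters and not a site. G and C made up 61.7% of the Fscn1 window, 63.7% of the Marcksl1 window and 59.7% and 72.0% of the Cacnb3 windows, with a median of 52.7% over all windows.

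Across the comparisons, 6 of the 7 genes above an intensity of 64 were at least 2-fold higher with poly I:C at normoxia, all but Marcks, beside 14.8% of the 2715 genes. None was 2-fold lower, beside 7.18% of genes. With poly I:C at hypoxia 4 of 7 were higher (Cd86, Cd274, Ccr7 and Marcksl1), beside 16.5% of genes, and none lower, beside 9.61%. Over all 10 genes, 9 were higher at normoxia and 6 at hypoxia, beside 2.89% and 3.47% of all 22221 genes with no minimum intensity. The genes that were 2-fold higher at normoxia and not at hypoxia were Fscn1, Cacnb3 and Cd83. Centring on 10 reference genes, under which the poly I:C difference of the median gene went from -0.03 to 0.37 at normoxia and from -0.06 to 0.38 at hypoxia, brought Cacnb3 from 0.74 to 1.18 at hypoxia. Reference genes themselves differed between arrays, so this centring is not a neutral standard. As deposited, Pgk1 was at 1.71 and Gapdh at 0.93 for hypoxia in media. For poly I:C at normoxia B2m was at 0.53 and Hprt at -0.89. With 16 added to the intensities Ccr7 was at 0.97 at hypoxia, short of 2-fold. The percentages over all genes depended on scaling too: with that centring, 22.4% of genes were higher and 2.47% lower with poly I:C at normoxia, and 24.8% and 3.83% at hypoxia. Centring on the median of genes gave 14.9% and 13.2% at hypoxia.

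**Figure D2:**
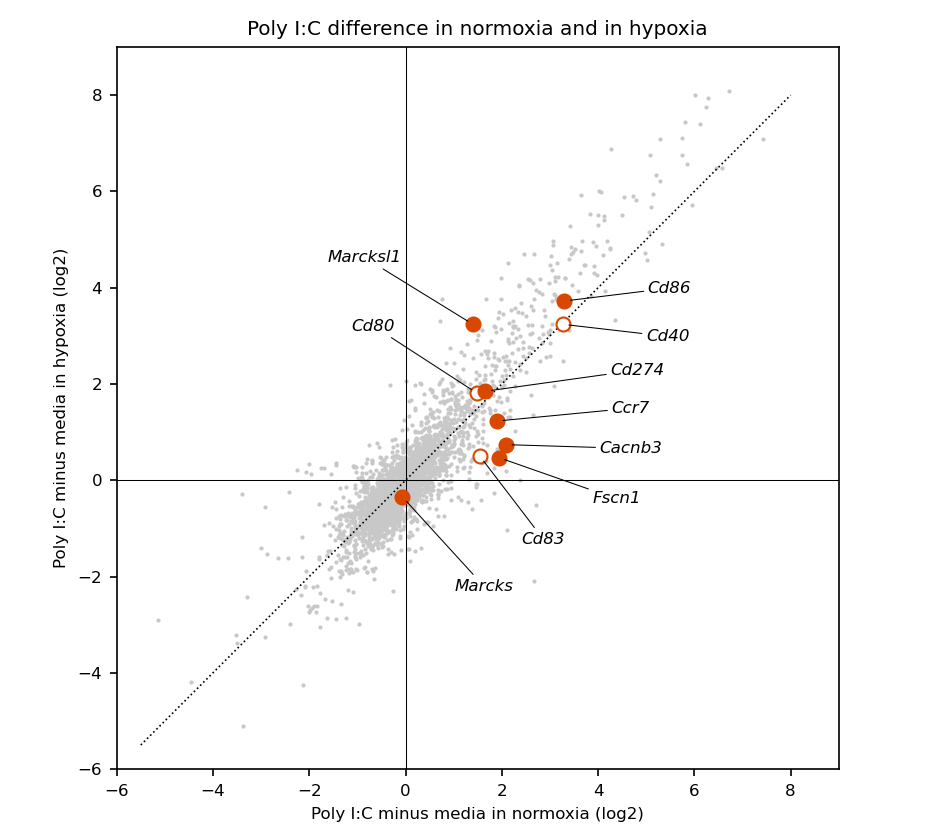
Each grey point is 1 of 2715 genes, placed by its log2 difference of poly I:C against media at normoxia (x axis) and at hypoxia (y axis), 2 comparisons that share no array. Orange points are the 10 genes, open where no array reached an intensity of 64, and the dotted line marks equal differences. Fscn1, Cacnb3, Cd83 and Ccr7 lie below the line and Marcksl1 lies above it.

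For hypoxia against normoxia in media, 4 of 7 genes were at least 2-fold lower, Marcksl1, Marcks, Fscn1 (-1.23) and Cacnb3 (-1.06), beside 6.78% of the 2715 genes. Both media arrays of Fscn1 and Cacnb3 were under 64, and with 16 added to the intensities Fscn1 was at -0.69 and Cacnb3 at -0.49, which leaves 2 of 7. None was higher, beside 5.34%. With poly I:C 4 of 7 were again lower, now Fscn1, Cacnb3, Marcks and Ccr7, beside 3.68% of genes, and none higher, beside 3.98%. Cd83, dimmer than 64, was the fifth of all 10 genes to be 2-fold lower with poly I:C, beside 1.22% of all 22221 genes. Scaling moved the balance over all genes: 4.60% were higher and 8.80% lower in media when arrays were centred on reference genes, and 4.71% were higher and 2.95% lower with poly I:C after cyclic loess. The hypoxia differences of Cd40 and Cd80 were small, between -0.42 and -0.08 in media and with poly I:C.

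**Figure D3:**
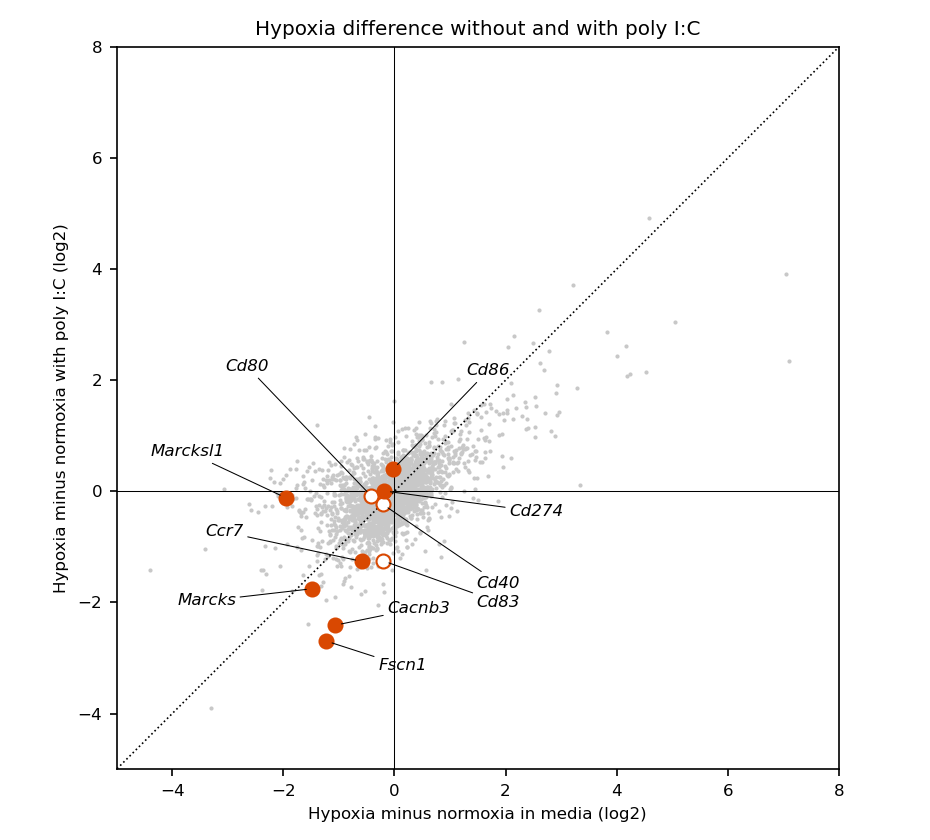
Each grey point is 1 of 2715 genes, placed by its log2 difference of hypoxia against normoxia in media (x axis) and with poly I:C (y axis), 2 comparisons that share no array. Orange points are the 10 genes, open where no array reached an intensity of 64, and the dotted line marks equal differences. Fscn1 and Cacnb3, which passed 64 on the normoxic poly I:C array only, sit at the lower edge of all genes on the y axis. Marcksl1 is low on the x axis only.

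With both treatments together against neither, 3 of 7 genes were at least 2-fold higher, Cd86 (3.70), Cd274 (1.67) and Marcksl1 (1.28), beside 18.8% of genes, and Marcks was lower (-1.82), beside 14.4%. Under reference gene centring 25.2% of genes were higher and 7.96% lower. Cd40 (3.03) and Cd80 (1.39) were also higher, Cd80 by less than 2-fold (0.77) with 16 added to the intensities. Ccr7 (0.64), Cd83 (0.29), Cacnb3 (-0.33) and Fscn1 (-0.76) ended within 2-fold of the untreated array. The sign for Cacnb3 depended on scaling, with a range of -0.40 to 0.02.

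The difference of differences placed the genes in order from Fscn1 (-1.46), Cacnb3 (-1.34) and Cd83 (-1.04) through Ccr7 (-0.67), Marcks (-0.28), Cd40 (-0.02), Cd274 (0.19), Cd80 (0.33) and Cd86 (0.42) to Marcksl1 (1.84). Of the 7 brighter genes Fscn1 and Cacnb3 passed 2-fold downwards, beside 2.91% of genes, and Marcksl1 passed it upwards, beside 5.89%. The robust SD over all genes was 0.45, so neighbours in this order from Fscn1 to Cd86 were closer together than that spread, and Marcksl1 stood further from Cd86. The sign for Cd40 depended on scaling (-0.09 to 0.01), and that for Cd80 on the probe set, with -0.24 for the dimmer probe set. With 1 array per condition the combination itself could not be tested.

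**Figure D4:**
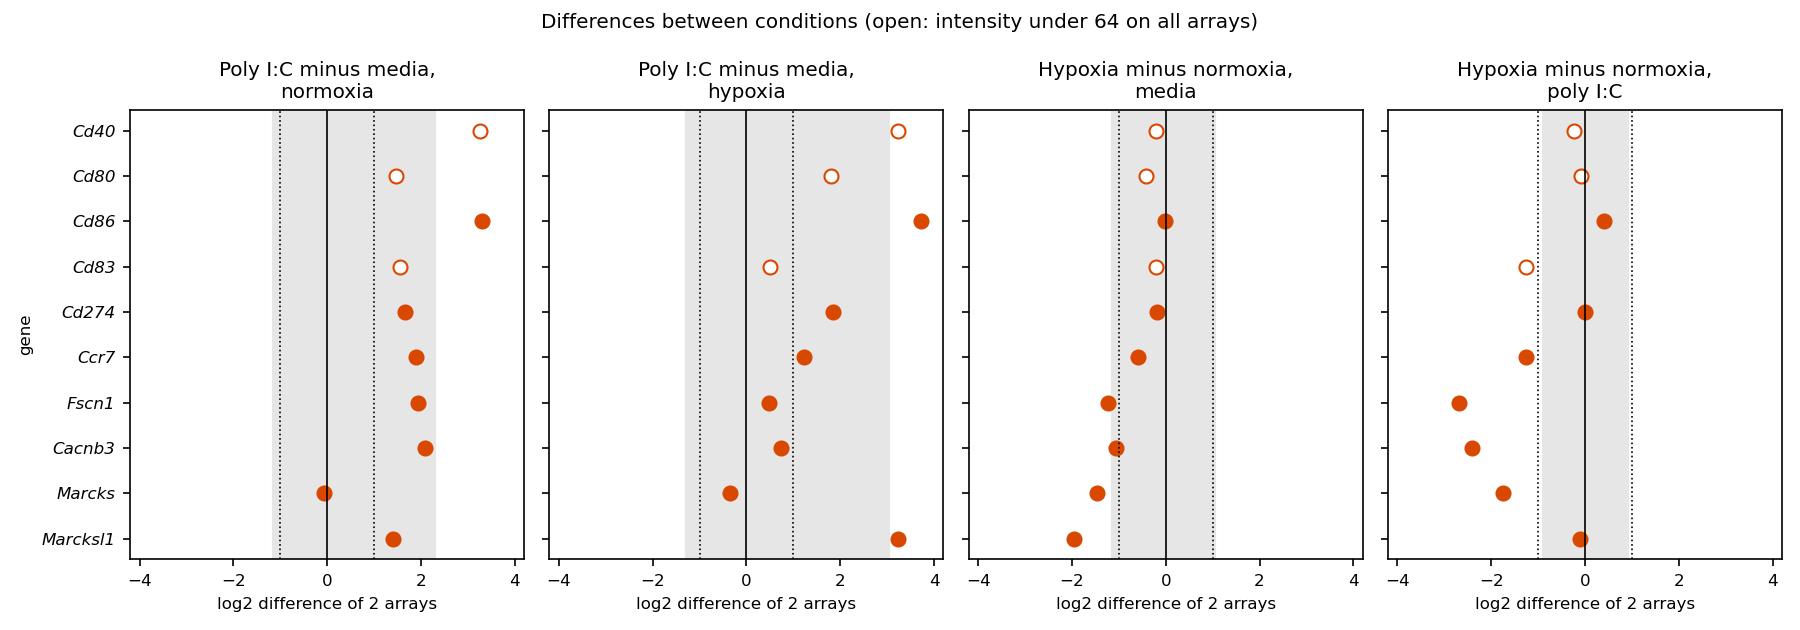
Log2 differences between 2 arrays (x axis) of the 10 genes (rows) in 4 comparisons (panels), with filled points for genes of intensity 64 or more on at least 1 array. The grey band holds the middle 90% of 2715 genes, which for hypoxia with poly I:C runs from -0.88 to 0.91, and dotted lines mark 2-fold. Fscn1, Cacnb3, Marcks, Ccr7 and Cd83 lie left of that band in the last panel.

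The authors' deposited table puts 548 probe sets in an order, all those whose intensities span 80 or more and differ 3-fold or more between the highest and lowest array. This order runs in blocks of like pattern. All 50 with ranks 351 to 400 in the authors' deposited table were highest at normoxia in media and lowest at hypoxia with poly I:C. A low rank was therefore not read as a larger difference. Of the 10 genes, 6 have a rank in the authors' deposited table, which is Fscn1 12, Cd86 30, Cd274 115, Ccr7 258, Marcksl1 326 and Marcks 345. The remaining 4 fell short of the intensity span, Cacnb3 by little with a span of 74.7 and Cd40, Cd83 and Cd80 with 55.1, 35.2 and 25.1. Of the 50 probe sets with ranks 251 to 300 in the authors' deposited table, among them Ccr7, 46 were highest at normoxia with poly I:C and lowest at hypoxia in media. Marcks was 1 of 5 probe sets with ranks 301 to 350 in the authors' deposited table that were highest at normoxia in media and lowest at hypoxia with poly I:C.

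Genes with the most similar profiles were listed by the distance between centred log2 profiles over the 4 arrays. Apart from the 10 genes, those nearest to Fscn1 were Acsl1, a long-chain fatty acid activating enzyme (distance 0.84), Edn1, the endothelin precursor (1.03), Calcrl (1.09), Mmp25 (1.10) and Pdpn, which encodes podoplanin (1.13). Acsl1 read 166 and 601 at normoxia without and with poly I:C and 66.6 and 184 at hypoxia, so unlike Fscn1 it was 2-fold higher with poly I:C at hypoxia too (1.46). For Cd86 the nearest genes were closer, Sp140 (0.21), the chemokine receptor-like gene Ccrl2 (0.24), the MHC class I gene H2-T22 (0.31), Nt5c3 (0.33) and AW112010 (0.35). Sp140 read 25.5, 226, 20.7 and 285 in the same order of conditions. For Ccr7 they were Tagap1 (0.33), Ccdc86 (0.33), the asparagine synthetase gene Asns (0.37), Mmp25 (0.38) and Slamf7 (0.42). With 4 arrays many genes share a profile, and closeness here says nothing about common control.

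Other genes of mature dendritic cells were taken from a list of 34, all on the array, of which 12 reached an intensity of 64. With poly I:C at normoxia 7 of the 12 were at least 2-fold higher, beside 14.8% of the 2715 genes, and 1 was lower, beside 7.18%. The median was 1.12, against -0.03 over all genes. At hypoxia 6 were higher, beside 16.5%, and 1 was lower, beside 9.61% (median 0.81, against -0.06). Of the genes higher at normoxia, Cst7, Il15ra, Il15 and Gadd45b passed 64 on the poly I:C arrays only. They had to be higher there, so these counts and medians support nothing. Cst7, which encodes the protease inhibitor cystatin F, read 11.0 and 9.59 in media and 173 and 184 with poly I:C at normoxia and hypoxia. Il15ra, the receptor chain that presents interleukin 15, was higher by 2.77 at normoxia and 3.92 at hypoxia, Il15 by 2.02 and 2.57, and Gadd45b by 2.04 and 1.98. Anxa3, an annexin gene, was lower, at -1.84 and -2.20.

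Under hypoxia some genes of that list were lower and some higher. In media 1 of the 12 was 2-fold higher, beside 5.34% of the 2715 genes, and 2 were lower, beside 6.78%. The median was -0.39, against -0.10 over all genes. With poly I:C 2 were higher, beside 3.98%, and 3 were lower, beside 3.68% (median 0.04, against -0.05). Genes of that list under 64 on all arrays are outside these counts. Of them Serpinb6b (-2.08), Il12b (-1.68), Stat4 (-1.58), Il4i1 (-1.3), Mreg (-1.14) and Tbc1d4 (-1.01) were 2-fold lower at hypoxia with poly I:C. None of these dimmer genes was 2-fold higher. With no minimum intensity 1.22% of all 22221 genes were lower and 1.19% higher. Apol7c, an apolipoprotein L family gene, read 90.2 at normoxia in media, 201 at normoxia with poly I:C, 9.16 at hypoxia in media and 13.5 at hypoxia with poly I:C. Both hypoxic arrays were far below both normoxic arrays, with log2 differences of -3.30 in media and -3.89 with poly I:C. The MHC class I-like gene H2-M2 read 176, 371, 53.1 and 238 in that order and resembled Marcksl1, with hypoxia differences of -1.73 in media and -0.64 with poly I:C. Tnfrsf9, which encodes the co-stimulatory receptor 4-1BB, went the other way at 18.8, 98.0, 436 and 437. The chemokine gene Ccl22 (-1.07) and Tmem123 (-1.01) were lower at hypoxia with poly I:C, and Il15 was higher (1.02).

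**Figure D5:**
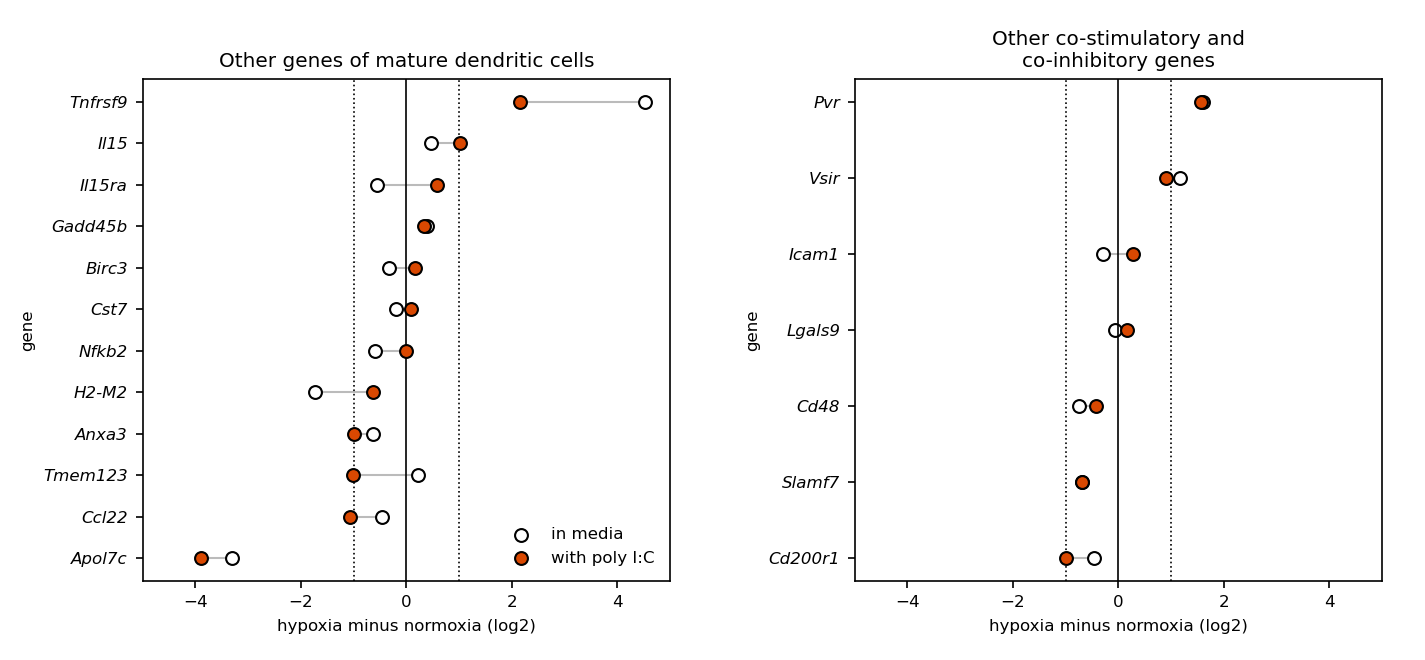
Log2 difference of hypoxia against normoxia (x axis) in media (open points) and with poly I:C (filled points) for listed genes (rows) that reached an intensity of 64, with dotted lines at 2-fold. Apol7c is lowest at -3.30 and -3.89 and Tnfrsf9 highest at 4.53 in media. None of the 7 co-stimulatory and co-inhibitory genes was 2-fold lower, beside 6.78% of 2715 genes in media and 3.68% with poly I:C. Cd200r1 lies just inside the 2-fold line.

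Of 24 other co-stimulatory and co-inhibitory genes 7 reached an intensity of 64. With poly I:C at normoxia 4 were at least 2-fold higher, beside 14.8% of the 2715 genes, and 1 was lower, beside 7.18%. The median was 1.02, against -0.03 over all genes. At hypoxia 4 were higher, beside 16.5%, and 2 were lower, beside 9.61% (median 1.46, against -0.06). Lgals9, which encodes galectin 9, was higher by 2.07 and 2.30, Pvr, an adhesion and receptor ligand gene, by 1.81 and 1.77, Slamf7 by 1.47 and 1.46 and the adhesion gene Icam1 by 1.02 and 1.58. The inhibitory ligand gene Vsir was lower, at -1.44 and -1.70, and Cd200r1 was at -0.93 and -1.46. Icam1 passed 64 on the poly I:C arrays only, Pvr on the hypoxic poly I:C array only and Vsir on the media arrays only. These genes had to be higher there, so the counts and medians of this list support nothing. None of the 7 was 2-fold lower at hypoxia, beside 6.78% of the 2715 genes in media and 3.68% with poly I:C. With so few genes listed, none is near those shares. Pdcd1lg2, of the same list, missed 64 by little with a highest intensity of 60.8 and was lower at hypoxia with poly I:C (-1.2). No other dimmer gene of the list was 2-fold apart in that comparison. Pvr was higher by 1.61 in media and 1.56 with poly I:C, and Vsir by 1.16 in media and 0.90 with poly I:C. The shares of genes 2-fold higher were 5.34% in media and 3.98% with poly I:C. Cd48 stayed within 2-fold in each of these comparisons.

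Of 26 listed chemokine receptor and lipid mediator genes 25 were on the array and 10 reached an intensity of 64. Ptgs2, the inducible cyclooxygenase gene, was higher with poly I:C by 4.18 at normoxia and 4.97 at hypoxia from low signal in media, and Cxcr4, a chemokine receptor gene, was higher at hypoxia in media (1.58). At hypoxia with poly I:C 0 of the 10 passed 2-fold against normoxia (median 0.17), with Ptgs2 just under it at 157 against 78.7. Over the 2715 genes 3.98% were higher and 3.68% lower in that comparison, so 0 of 10 is near those shares. The chemokine receptor gene Ccr1 was higher with poly I:C at hypoxia (1.02), the phospholipase gene Plcb2 was lower at either oxygen level (-1.12 and -1.17), and the transporter gene Abcc1 was lower at normoxia (-1.28).

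Of 37 actin cytoskeleton genes 27 reached an intensity of 64. None was 2-fold apart for poly I:C at normoxia (median -0.06), beside 14.8% of the 2715 genes higher and 7.18% lower. The same held for hypoxia in media (-0.09), beside 5.34% higher and 6.78% lower. At hypoxia with poly I:C 1 was lower than at normoxia, beside 3.68% of genes. It was Actn1, which encodes an actinin (-1.05), with a list median of -0.16. Poly I:C at hypoxia gave 2 lower genes, Actn1 (-1.02) and Dock2, a Rac activator gene (-1.22), beside 9.61%. Evl, an actin assembly gene, was at -0.78 for hypoxia in media, Tmsb10, a thymosin gene, at 0.76 and 0.77 and Flna, the filamin A gene, at -0.86 and -0.73 for poly I:C at normoxia and hypoxia. Among 12 genes for protein kinase C and calmodulin, whose products act on the MARCKS proteins, 11 were on the array and 5 reached an intensity of 64. Prkcb, a protein kinase C gene, read 227 at normoxia in media, 56.3 at normoxia with poly I:C, 96.1 at hypoxia in media and 14.5 at hypoxia with poly I:C, so both treatments went with a difference of more than 2-fold. Calm2, a calmodulin gene, was lower with poly I:C at normoxia (-1.04) and at -0.70 at hypoxia.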

How the data were processed

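Total RNA of 4 samples, 1 per condition (200 ng each), was measured with Affymetrix Mouse Gene ST 1.0 arrays. Per the submitters' processing notes, the authors normalized the files by RMA in Affymetrix Expression Console. Per the labels, every sample is total RNA, though a protocol text speaks of nascent RNA too. Tool versions and the genome build were not given in the sources used. The deposited intensity values are linear (medians of 3.90 to 4.09, highest values of 7225 to 8810), and 0 of the values of 28998 probe sets differed between the 2 deposited tables. The deposited rank of 548 probe sets was used as a score, and 4 deposited columns of Z-scores were not used.

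Probe sets were named through RefSeq accessions and symbols of GRCm38.p6, used for names only: 18698 by accession, 2207 by symbol, 1750 by synonym and 2269 by the symbol in the table, while 163 with several genes and 3911 with none were left out. Log2 was taken of the brightest probe set per gene. Differences were counted at 2-fold among genes whose highest log2 value reached 6, which is an intensity of 64. With 1 array per condition there was no test, and the counting of differences was checked on simulated data. Alternatives were no minimum or a minimum of 7, the mean of probe sets, 3 other scalings (the cyclic loess of limma 3.58.1), 16 added before log2, and thresholds of 1.5-fold and 3-fold. Named list genes that reached an intensity of 64 are among the 4 of largest difference per list and comparison, and profile neighbours are the 5 nearest. Dimmer list genes are named where they were 2-fold lower at hypoxia with poly I:C than at normoxia. The genes and lists were chosen with earlier results of these data known. Python 3.11.15 and pandas 2.3.3 were used.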

Additional observations from a re-analysis of the deposited data

Results flagged for a closer look

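In the genes named here a few differences changed sign between the arms of the experiment, and with 1 array per condition none of these changes was tested. For hypoxia against normoxia, the values in media and with poly I:C were of opposite sign for Cd86 (-0.02 and 0.40) and Cd274 (-0.18 and 0.01). Both values of Cd274 were smaller in size than 0.32, the yardstick derived from the difference of differences. Under other scalings Cd86 in media ranged from -0.12 to 0.04 and Cd274 with poly I:C from -0.05 to 0.07, so the opposite signs of both genes depended on scaling. Values of opposite sign were also found, in the same order, for Lgals9 (-0.07 and 0.16), Icam1 (-0.29 and 0.27), Cst7 (-0.20 and 0.09), Il15ra (-0.56 and 0.58) and Tmem123 (0.22 and -1.01). Calm2 (-0.20 and 0.14), Sp140 (-0.30 and 0.34), Ccrl2 (-0.07 and 0.73), Nt5c3 (-0.19 and 0.14) and AW112010 (-0.37 and 0.51) had them too. Whether the signs of these further genes depended on scaling was not examined. Of these Il15ra and Tmem123 differed most between the arms, with 1.14 and -1.23 as their differences of differences. For poly I:C against media, the values at normoxia and at hypoxia were of opposite sign for Ccl22 (0.31 and -0.29), Tmem123 (0.63 and -0.60) and Cxcr4 (0.87 and -0.18). Each of those genes was within 2-fold of media at either oxygen level.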

How the results depend on the processing

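With 1 array per condition every value rests on single arrays, and dim genes rest on signal near background, which limits Cd40, Cd80 and Cd83. Dim signal also limits the hypoxic values of Fscn1 (13.5 and 18.8) and Cacnb3 (9.49 and 15.9). No paired analysis was possible because each condition has 1 array. Of 54 recounts of the 10 genes' 2-fold differences under 9 alternatives, 48 stayed within 1.5 times the reported count. For hypoxia in media the reported 4 became 2 with a minimum of 7, 2 with 16 added to the intensities, where Fscn1 was at -0.69 and Cacnb3 at -0.49, and 1 at a 3-fold threshold. For hypoxia with poly I:C the reported 4 became 2 with a minimum of 7. For the difference of differences the reported 3 became 1 with a minimum of 7 and 1 at 3-fold. The higher minimum takes Fscn1 and Cacnb3 out of the count, and 3-fold is a stricter count. Of 300 values recomputed for single genes under 5 alternatives, 247 moved by less than 0.32, 53 moved by more, and 9 had another sign. None of the 9 was a 2-fold difference.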
